A study of Saccharomyces cerevisiae with 16 samples.

Results

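The mRNA of *eIF3a/b Degron* yeast was compared with the mRNA of its isogenic WT strain to ask which transcripts and pathways changed in level when eIF3 was depleted, with translation left aside. The genes compared were those that averaged at least 32 reads over the 4 mRNA libraries of this strain pair, which left 5306 of the 5647 genes counted and set 341 aside. The series holds 16 libraries of *Saccharomyces cerevisiae*, with ribosome footprints and mRNA from *eIF3a/b Degron*, *eIF3i DDKK* and a WT strain for each, and the 2 *eIF3a/b Degron* and 2 WT mRNA libraries of the first pair were used here. The *eIF3a/b Degron* strain (YAJ34) carries degron alleles of TIF32 (eIF3a) and PRT1 (eIF3b), *tif32td* and *prt1td*, both transcribed from the copper-dependent CUP1 promoter and both joined to *URA3*. Both alleles carry an HA tag, and *prt1td* also holds *DHFRts*. Its WT (YAJ3) has unaltered TIF32 and PRT1 and the plasmid pRS316 [*URA3*]. Both strains are *MATa* with auxotrophic mutations in LEU2, TRP1 (*trp1Δ*) and URA3 (*ura3-52*), both lack the eIF2α kinase gene (*gcn2::hisG*), and both carry *PGAL1-myc-UBR1::TRP1::ubr1*, so that the ubiquitin ligase Ubr1, which recognises the degron, is made when galactose is given. Cells of both strains grew at 25°C in raffinose medium with copper and were then moved to raffinose and galactose medium with the copper chelator BCS at 36°C for 90 min. Each strain is represented by 2 biological replicate cultures of 1 strain, so the spread is that between cultures, and heat, sugar and copper shifts are shared by mutant and WT.

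eIF3 is the largest of the translation initiation factors and helps the small ribosomal subunit to load onto mRNA. In budding yeast, genes for ribosomal proteins and for ribosome assembly are transcribed when cells grow fast and are shut down in stress, while chaperone, proteasome and reserve carbohydrate genes are switched on by the transcription factors Hsf1, Rpn4 and Msn2/4 when proteins misfold, when proteasome capacity falls or when the cell is starved or heated. Medium and sugar also set the level of glycolytic, respiratory and galactose genes.

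The mRNA libraries held 6390720 and 6030299 reads in *eIF3a/b Degron* and 9002332 and 10994187 reads in WT. Levels are given as CPM, reads scaled to a library total of 1000000 after TMM scaling, which sets the bulk of genes equal between libraries, so a change in the total mRNA of a cell was not measured, and in a bulk sample fewer cells and less RNA per cell cannot be told apart. The cultures of a strain were close to each other (Pearson's r of log2 CPM across genes of 0.994 in *eIF3a/b Degron* and 0.996 in WT). The reads of 1 open reading frame, YDR445C, made up 11.4% and 12.3% of the reads in *eIF3a/b Degron* and 9.49% and 8.79% in WT, and leaving it out left the counts of changed genes within 1 of their values. The genes named in the genotypes were examined first. GCN2, which is deleted in both strains, had 30 and 21 reads in *eIF3a/b Degron* and 25 and 34 reads in WT and was below the filter. UBR1, driven from the GAL1 promoter, was among the most abundant mRNAs of both strains, at 9224 and 9249.7 CPM in the *eIF3a/b Degron* cultures, against 15103 and 13104 CPM in the WT cultures. TIF32 mRNA, from the CUP1 promoter in the mutant, was at 614 and 604 CPM in the *eIF3a/b Degron* cultures, against 496 and 509 CPM in the WT cultures. PRT1 mRNA was at 518 and 529.7 CPM in *eIF3a/b Degron* and 477 and 512 CPM in WT. TIF32 mRNA was slightly higher (log2 change 0.28 ± 0.06 SE, adjusted p = 2.84e-04 by edgeR's quasi-likelihood test), and PRT1 mRNA did not pass the test (log2 change 0.08 ± 0.06 SE, adjusted p = 0.239) in the 4 libraries, although it did when footprint libraries were scaled with them (log2 change 0.20, adjusted p = 0.00667 by edgeR). Protein levels were not analysed here. URA3, on a plasmid in WT and integrated in the mutant, was lower at 157 and 157 CPM in *eIF3a/b Degron* and 266 and 254 CPM in WT (log2 change -0.73 ± 0.06 SE). The strains are *MATa*, and the mRNA of the a-factor gene MFA1 and of STE2, the α-factor receptor, was present in both.

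Transcript levels changed widely and in both directions. At an adjusted p under 0.05 over all genes tested (Benjamini-Hochberg), 1903 genes rose (35.9% of those tested) and 1938 fell (36.5%). Large changes were mostly falls, with 620 genes at least 2-fold lower (11.7%) and 197 at least 2-fold higher (3.71%), and with 145 genes lower against 18 higher by 4-fold or more. The median log2 change was 0.00, which TMM scaling sets near 0, and 0.05 with library size alone. The balance of rises and falls rests on the same scaling. Genes that fell 2-fold held 6.03% of the reads in *eIF3a/b Degron* and 24.2% of those in WT, while genes that rose 2-fold held 10.8% of the reads in *eIF3a/b Degron* and 4.44% in WT. Of the called genes, 3024 changed less than 2-fold. Both *eIF3a/b Degron* cultures lay above both WT cultures in 2304 of the 5306 genes and below both in 2274. Cultures that do not overlap are thus common over all genes and not particular to the genes named below. When the footprint libraries were scaled together with the mRNA, the median of all genes lay at 0.12, and 58.9% of the calls were rises, against 49.5% with mRNA alone. Many lists of genes known to act together had most of their called members in the same direction. In the plot of list medians, ribosome, ribosome assembly and mating genes lay above the median of all genes. Carbon metabolism, mitochondria, chaperones and the proteasome lay below it. Other lists were split, such as mRNA decay and Gcn4-type amino acid synthesis. The lists were chosen with earlier results of these data known. Each list is described by how many of its tested members passed the test and by its median log2 change. The background for every list is that of all genes, with 35.9% risen, 36.5% fallen and a median of 0.00. Log2 changes are given ± SE, worked out from the test statistic. With 2 cultures of each strain, the p-values measure the spread between cultures.

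**Figure D1:**
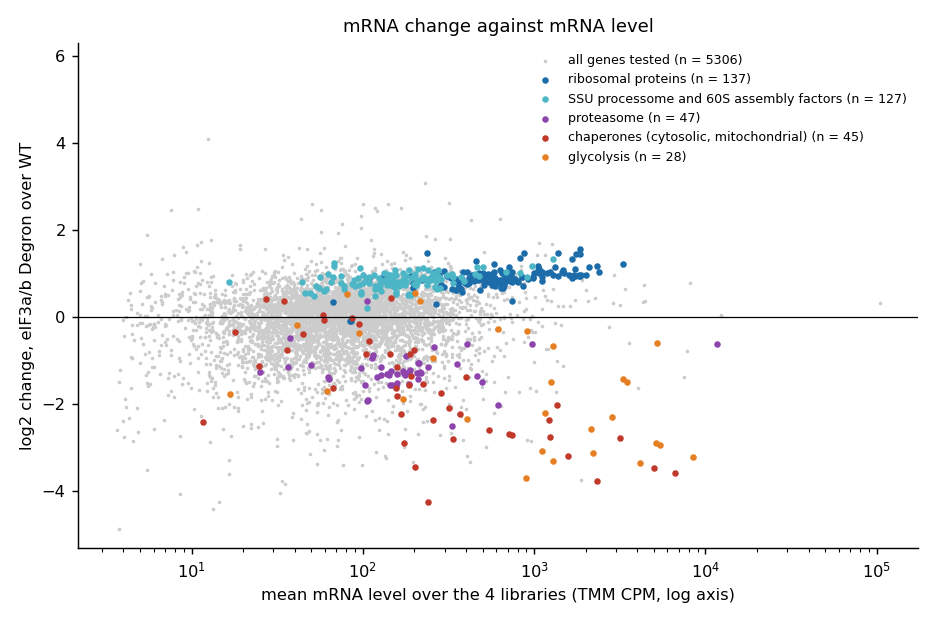
Log2 change of each gene in *eIF3a/b Degron* over WT (y axis) against its mean level over the 4 libraries in TMM-scaled CPM (x axis, log scale), with 5 gene lists in colour and all 5306 genes tested in grey. Ribosomal protein and assembly factor genes sit above 0 with few exceptions, and most chaperone, glycolysis and proteasome genes sit below it.

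**Figure D2:**
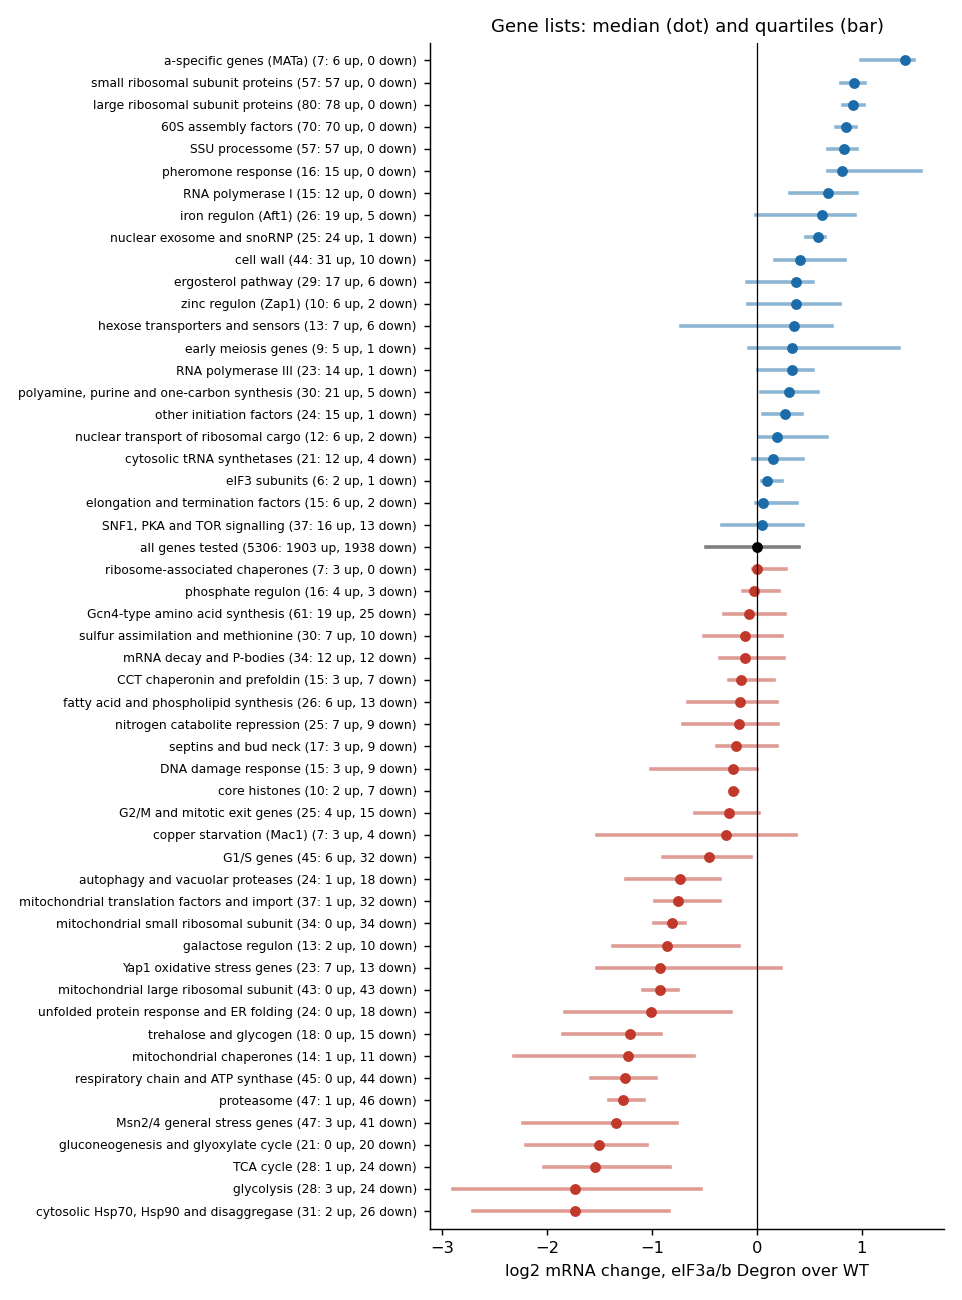
Median log2 change (dot) and quartiles (bar) of each list with at least 6 tested genes in *eIF3a/b Degron* over WT, with the number tested, risen and fallen in each label. The medians run from -1.73 for cytosolic chaperones and for glycolysis to 1.41 for a-specific genes, beside 0.00 for all genes tested.

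The 15 largest rises included genes of sugar uptake, the cell wall, iron uptake and aromatic amino acid breakdown. Sugar uptake was represented by HXT4 alone, and of 13 hexose transporter and sensor genes 7 rose and 6 fell. Iron uptake was represented by FRE4 alone, and of 26 iron regulon genes 19 rose and 5 fell. Of 8 aromatic amino acid breakdown genes, listed after the values were seen, 4 rose and 3 fell. HXT4, a hexose transporter, was at 443 and 385 CPM in the *eIF3a/b Degron* cultures, against 49.4 and 48.1 CPM in the WT cultures. It rose 8.5-fold (log2 change 3.09 ± 0.08 SE, adjusted p = 1.61e-19), and the cultures of the strains were far apart. SLT2, the MAP kinase of the cell wall integrity pathway, was at 503 and 590.4 CPM in the *eIF3a/b Degron* cultures, against 87.2 and 89.4 CPM in the WT cultures. This was a 6.19-fold rise (log2 change 2.63 ± 0.08 SE, adjusted p = 1.67e-18). ARO9 and ARO10, an aminotransferase and a decarboxylase of aromatic amino acid breakdown, rose together. ARO9 had 249 and 232 CPM in *eIF3a/b Degron* and 40.9 and 38.3 CPM in WT. ARO10 had 203 and 203 CPM in *eIF3a/b Degron* and 37.6 and 37.5 CPM in WT. Their log2 changes were 2.60 ± 0.08 and 2.43 ± 0.08 (SE), and neither culture of one strain came near a culture of the other. Cell wall protein genes were also among the 15 largest. PST1 had 918 and 1176 CPM in *eIF3a/b Degron* and 221 and 221 CPM in WT and PIR3 had 249 and 318 CPM in *eIF3a/b Degron* and 48 and 51.7 CPM in WT, with log2 changes of 2.24 ± 0.09 and 2.50 ± 0.09 (SE). PRM5, whose transcription is raised by cell integrity signalling, rose (log2 change 2.32 ± 0.10). FRE4, a ferric reductase, rose (log2 change 2.61 ± 0.12), and the exporters AQR1 and TPO2 rose (log2 change 2.47 ± 0.13 and 2.24 ± 0.08), although 51.3% of the 28-base windows of the TPO2 coding sequence occur more than once among coding sequences, so that its reads cannot all be placed. SSK22, a kinase of the osmotic stress pathway, rose (log2 change 2.49 ± 0.08). The meiotic kinase gene IME2 had 68 and 76.8 CPM in *eIF3a/b Degron* and 12.4 and 17.4 CPM in WT (log2 change 2.26 ± 0.13 SE). YMR317W, an open reading frame with no described role, had the largest log2 change of all but from low levels, at 30.4 and 16.8 CPM in *eIF3a/b Degron* and 0.899 and 1.76 CPM in WT (log2 change 4.10 ± 0.32 SE). YDR222W, also without a described role, had 169 and 172 CPM in *eIF3a/b Degron* and 29.2 and 27.6 CPM in WT. MF(ALPHA)1, which encodes the pheromone α-factor that only *MATα* cells make, was at 19 and 17.8 CPM in *eIF3a/b Degron* and 4.27 and 2.41 CPM in WT, a rise at a low level.

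**Figure D3:**
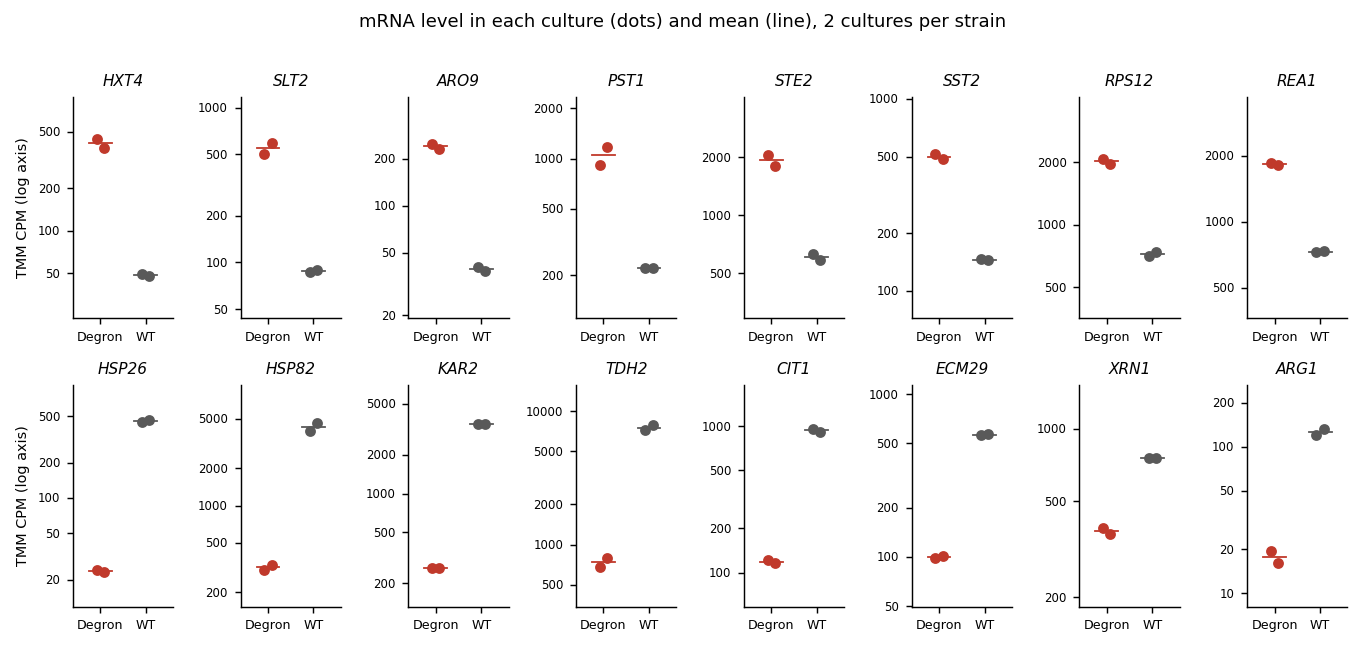
Level of 16 mRNAs in each culture (dots, TMM-scaled CPM, log axis) with the mean (line), *eIF3a/b Degron* at left and WT at right in each panel. In the upper row the 2 *eIF3a/b Degron* cultures lie above both WT cultures, and in the lower row they lie below both, with no overlap in any of the 16 genes. Absence of overlap was common over all 5306 genes tested, with 2304 above WT and 2274 below it.

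The largest falls were in chaperone genes, in genes of sugar and fatty acid use and in genes that yeast expresses when glucose is scarce. HSP26, a small heat shock protein, was at 24.4 and 23.5 CPM in the *eIF3a/b Degron* cultures, against 449 and 460.0 CPM in the WT cultures. This was 19-fold lower (log2 change -4.25 ± 0.08 SE, adjusted p = 6.86e-21). KAR2, the Hsp70 of the endoplasmic reticulum, was at 263 and 262 CPM in the *eIF3a/b Degron* cultures, against 3473 and 3491 CPM in the WT cultures. It fell 13.3-fold (log2 change -3.73 ± 0.08 SE, adjusted p = 1.20e-20), with nearly equal cultures in each strain. HSP82, one of the genes for Hsp90, was at 305 and 332 CPM in the *eIF3a/b Degron* cultures, against 3994 and 4681 CPM in the WT cultures (log2 change -3.77 ± 0.09 SE), with 18.2% of its windows shared. SSA1 and SSA2, cytosolic Hsp70 genes, fell (log2 change -3.58 ± 0.09 and -3.47 ± 0.09), and 64.7% or more of the windows of each occur more than once among coding sequences. HXK1, hexokinase, was at 129 and 127.6 CPM in the *eIF3a/b Degron* cultures, against 1568 and 1738 CPM in the WT cultures (log2 change -3.69 ± 0.08 SE). Other falls were in mRNAs of lower level. MPC3, a subunit of the mitochondrial pyruvate carrier, was at 3.24 and 4.24 CPM in *eIF3a/b Degron* and 68.8 and 54.7 CPM in WT. SPO24 had 4.17 and 5.05 CPM in *eIF3a/b Degron* and 63.6 and 67.8 CPM in WT. ALD6, a cytosolic aldehyde dehydrogenase, had 13.4 and 13 CPM in *eIF3a/b Degron* and 140.0 and 140.0 CPM in WT and fell 10.6-fold. RGI2, SDH9, POT1 (a peroxisomal thiolase) and YMR206W had at most 4.73 CPM in a mutant culture and at least 15.2 CPM in a WT culture. HSP42 and MAN2 complete the 15, the last with 72.1% of its windows shared. Leave-one-out fits kept each of these 30 genes in its direction, and DESeq2 and the other scalings also kept each past the threshold. The 30 were picked from the same 4 libraries for large called changes without overlap of cultures, so this was favoured by the choice.

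Genes for making ribosomes rose almost without exception. Of 57 tested genes for proteins of the small subunit, 57 rose, with a median log2 change of 0.92, and of 80 for the large subunit 78 rose and none fell, with a median of 0.91. The factors that assemble the subunits in the nucleolus rose to a similar degree, with 57 of 57 genes of the SSU processome (median 0.83) and 70 of 70 of the 60S assembly factors (median 0.85) past the test, so that 262 of 264 genes of the 4 lists rose and none fell. The rises were moderate, at 2-fold or more in 58 genes. The share of mRNA reads in ribosomal protein genes was 6.28% and 6.04% in *eIF3a/b Degron*, against 2.90% and 3.06% in WT, for the small subunit, and 8.82% and 8.51%, against 4.17% and 4.37%, for the large one. ASC1, the ribosome-associated scaffold of the 40S subunit, had 2962 and 2560.3 CPM in *eIF3a/b Degron* and 922 and 944 CPM in WT. RPS12 had 2079 and 1967 CPM in *eIF3a/b Degron* and 708 and 740.0 CPM in WT, and RPS3 had 2596 and 2559 CPM in *eIF3a/b Degron* and 889 and 996 CPM in WT. These were the largest rises in the small subunit (log2 changes 1.57 ± 0.08, 1.48 ± 0.07 and 1.45 ± 0.07, SE), and none overlapped WT. RPL9A, RPL22B and RPL15A led the large subunit with log2 changes of 1.48 ± 0.06, 1.47 ± 0.07 and 1.44 ± 0.07. Since most ribosomal proteins of yeast have near-identical gene pairs, 39 of the 57 and 55 of the 80 share more than 5% of their windows with another gene, and reads of a pair could be split between them. Of the assembly factors, REA1, the large AAA ATPase that remodels pre-60S particles, had 1856 and 1819.7 CPM in *eIF3a/b Degron* and 726 and 734 CPM in WT. UTP10, an early component of the 90S particle, had 1410.5 and 1274 CPM in *eIF3a/b Degron* and 618 and 575 CPM in WT. URB1, NOG2, FAL1 and UTP23 rose (log2 change 1.15 ± 0.06, 1.15 ± 0.06, 1.24 ± 0.09 and 1.19 ± 0.09). The transcription machinery of rRNA moved less evenly. RNA polymerase I genes rose in 12 of 15 (median 0.67), among them its largest subunit RPA190 (log2 change 1.12 ± 0.06) and its initiation factor RRN3 (log2 change 1.08 ± 0.06), and RNA polymerase III genes rose in 14 of 23 with TFC6 the only fall, a call lost when footprint libraries joined the fit (median 0.33). Nuclear exosome and snoRNP genes rose in 24 of 25 (median 0.58), the exception being AIR2, whose fall was not called without WT replicate 1.

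Promoters of the assembly factors are known to carry 2 sequence elements, named PAC and RRPE. In the 300 bases from 250 before to 50 after the start of each coding sequence (R64 genome, RefSeq annotation), the PAC core GATGAG was found on either strand in 89.0% of 127 assembly factor promoters, against 20.1% of 5264 promoters of tested genes, and the RRPE core AAATTTT in 96.1% against 24.5%. Both were present in 86.6%, against 8.47%. The windows of the 3 assembly factor genes with the largest rises among those with PAC and, in the last line, of 1 of these genes with RRPE are shown, with the core in capitals and each read 5′ to 3′ in the direction of the gene, since most members of these lists hold them.
REA1: ttttaaagaagcGATGAGctaaggtctatt
FAL1: tttattttatgcGATGAGctagataatagc
UTP23: tataattatcgtGATGAGcaagaagggaag
FAL1: gaattatacacAAATTTTaatataaaaggg
The PAC windows lie at chrXII:363926-363955, minus strand, at chrIV:486638-486667, plus strand and at chrXV:333512-333541, plus strand, with the core 205, 154 and 68 bases before the start codon. The RRPE window lies at chrIV:486692-486721, plus strand. Genes with both cores in the window had a median log2 change of 0.55 and rose in 72.2% of 446, against a median of -0.04 and 32.5% of 4818 without both. Of these 446, 110 are assembly factor genes already counted above, all of which rose, so the 2 sets are not separate. A promoter match is a description of letters and does not show that a factor was bound.

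Translation factors other than the ribosome moved little. Of 6 eIF3 subunit genes, NIP1 (eIF3c) rose to 897 and 819.7 CPM in *eIF3a/b Degron*, against 546 and 524 CPM in WT and TIF32 rose slightly, HCR1 (eIF3j) fell to 102 and 108 CPM in *eIF3a/b Degron*, against 129 and 145 CPM in WT, and the median was 0.09. Of 24 other initiation factor genes, 15 rose and 1 fell (median 0.27), led by RLI1, the ribosome recycling ATPase (log2 change 0.78 ± 0.07), and TIF6 (log2 change 0.69 ± 0.06), with the helicase gene DBP1 the only fall (log2 change -1.10 ± 0.13). Elongation and termination factors rose in 6 of 15 (40.0%, near the 35.9% of all genes) and fell in 2 (median 0.06). YEF3, elongation factor 3, was at 5677 and 5301 CPM in *eIF3a/b Degron* and 3215 and 3385 CPM in WT. Cytosolic tRNA synthetases rose in 12 and fell in 4 of 21 (median 0.15), among them MES1 (log2 change 0.74 ± 0.06) and GLN4 (log2 change 0.70 ± 0.06). The falls were small, and those of FRS2 (log2 change -0.17 ± 0.07) and DPS1 (log2 change -0.17 ± 0.06) were not called without WT replicate 2 or in some other leave-one-out fits, nor were these and that of GUS1 (log2 change -0.26 ± 0.06) when mRNA and footprint libraries were scaled together. Genes for nuclear transport of ribosomal cargo rose in 6 and fell in 2 of 12 (median 0.19), and GSP2, a Ran GTPase gene, was the large fall (log2 change -1.97 ± 0.11). Of 30 genes of polyamine, purine and one-carbon synthesis, 21 rose and 5 fell (median 0.30), with GCV2, a glycine cleavage enzyme, at 174 and 173 CPM in *eIF3a/b Degron* and 50.0 and 50.9 CPM in WT.

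Mating genes rose as a group. All but ASG7 of the 7 a-specific genes rose (median 1.41), and 15 of 16 genes of the pheromone response rose with none falling (median 0.81). PRM5, named above for cell integrity signalling, is among these 15. STE2, the α-factor receptor, was at 2068 and 1799.8 CPM in the *eIF3a/b Degron* cultures, against 630.3 and 585 CPM in the WT cultures (log2 change 1.67 ± 0.07 SE, adjusted p = 3.79e-15). STE6, the a-factor exporter, was at 1704 and 1649.7 CPM in *eIF3a/b Degron* and 626 and 628 CPM in WT. Every *eIF3a/b Degron* culture exceeded every WT culture for both. AGA2, an agglutinin subunit, rose (log2 change 1.57 ± 0.14) from a low level. SST2, which desensitises the pheromone G protein, had 513 and 488 CPM in *eIF3a/b Degron* and 146 and 144 CPM in WT (log2 change 1.79 ± 0.06 SE), and PRM1, a membrane fusion protein of mating cells, rose (log2 change 1.77 ± 0.20). Of the α-specific genes, which *MATa* cells repress, MF(ALPHA)2 had at most 1 read in any library. STE3, the a-factor receptor, fell and was at 11.4 and 15.2 CPM in *eIF3a/b Degron* and 23.1 and 24.2 CPM in WT. SAG1, the α-agglutinin, rose and was at 78 and 76.3 CPM in *eIF3a/b Degron* and 47 and 48 CPM in WT, so that these levels were low but not 0. Genes of early meiosis stayed low, at most 113 CPM in each culture, yet MEI4 (log2 change 1.42 ± 0.12) and RED1 (log2 change 1.35 ± 0.09) rose with IME2. Of 9 tested, 5 rose and 1 fell (NDT80, a call that DESeq2 did not make), with a median of 0.33.

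In the cell wall, iron, zinc and ergosterol lists more genes rose than fell. Of 44 tested cell wall genes, 31 rose and 10 fell (median 0.41). SLT2 and PIR3 led the rises, with DSE1, a daughter-cell wall protein, at 1821 and 1449 CPM in *eIF3a/b Degron* and 554 and 448 CPM in WT, while CHS2, the chitin synthase of the septum, fell to 78.2 and 78.7 CPM in *eIF3a/b Degron*, against 188 and 196 CPM in WT. TIP1, a mannoprotein, fell (log2 change -0.75 ± 0.06). The iron regulon, which the factor Aft1 switches on when iron is short, rose in 19 of 26 and fell in 5 (median 0.62). HMX1, a heme oxygenase, was at 775 and 739 CPM in the *eIF3a/b Degron* cultures, against 270.2 and 267 CPM in the WT cultures (log2 change 1.50 ± 0.06 SE), and FRE3 rose (log2 change 1.32 ± 0.07). The mannoprotein genes FIT2 and FIT3, of the same regulon, fell (log2 change -0.61 ± 0.09 and -0.51 ± 0.08). The zinc regulon rose in 6 and fell in 2 of 10 (median 0.37), with the transporter gene ZRT1 at 145 and 121 CPM in *eIF3a/b Degron* and 53.3 and 51 CPM in WT and ADH1, alcohol dehydrogenase, falling to 905 and 1021 CPM in *eIF3a/b Degron*, against 4553 and 4882 CPM in WT. Ergosterol genes rose in 17 and fell in 6 of 29 (median 0.37), among them ERG1, squalene epoxidase (log2 change 0.95 ± 0.06), and ERG11, lanosterol demethylase (log2 change 0.81 ± 0.06). Genes for fatty acid and phospholipid synthesis went the other way more often, with 13 falls and 6 rises in 26 (median -0.16), the methyltransferases CHO2 and OPI3 falling (log2 change -1.97 ± 0.08 and -1.83 ± 0.11).

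Protein folding genes fell in most lists. Of 31 tested cytosolic genes for Hsp70, Hsp90, small heat shock proteins and the disaggregase, 26 fell, 22 of them at least 2-fold, and 2 rose (median -1.73). Their share of the mRNA reads was 0.59% and 0.64% in *eIF3a/b Degron*, against 4.07% and 4.42% in WT. Of 14 mitochondrial chaperone genes, 11 fell (median -1.23), the matrix chaperonin HSP60 being at 317 and 306 CPM in the *eIF3a/b Degron* cultures, against 2652 and 3051 CPM in the WT cultures (log2 change -3.19 ± 0.08 SE, adjusted p = 1.58e-19). Its partner HSP10 had 86.2 and 83 CPM in *eIF3a/b Degron* and 568 and 604 CPM in WT, and the mitochondrial disaggregase HSP78 had 189 and 207 CPM in *eIF3a/b Degron* and 1255 and 1318 CPM in WT. None of the mutant values came near those of WT. The rises in these lists were small, in PPT1 (log2 change 0.43 ± 0.07) and SNL1 (log2 change 0.42 ± 0.14, not called by DESeq2) of the cytosolic genes and in the mitochondrial Hsp70 gene ECM10 (log2 change 0.37 ± 0.12, not called without WT replicate 2). Chaperones that work at the ribosome moved otherwise, with 3 of 7 rising and none falling. These were SSB1 (log2 change 0.45 ± 0.07) and SSB2 (log2 change 0.37 ± 0.07), which share most of their windows, and ZUO1 (log2 change 0.18 ± 0.07), not called by DESeq2 or without WT replicate 1. The median of that list was 0.00 and lay on either side of 0 under different scalings. The CCT chaperonin and prefoldin genes were split, 3 up and 7 down in 15 (median -0.15), with the CCT subunits CCT6 (log2 change -0.83 ± 0.06) and CCT8 (log2 change -0.68 ± 0.06) falling and the prefoldin genes PAC10 (log2 change 0.73 ± 0.10) and GIM3 (log2 change 0.55 ± 0.12) rising. In the endoplasmic reticulum, 18 of 24 genes fell and none rose (median -1.01), among them, beside KAR2, the disulphide isomerase PDI1 at 230.2 and 224 CPM in *eIF3a/b Degron* and 1577 and 1622 CPM in WT.

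Promoters of heat shock genes hold binding elements of Hsf1, of which the pattern GAANNTTC and its inverted form TTCNNGAA were searched on both strands. At least 1 of these was found in 48.9% of 45 chaperone promoters, against 22.9% of all 5264. Among all genes the presence of the pattern went with no shift, the median log2 change being -0.01 with it and 0.00 without. Windows are given of 3 chaperone genes with large falls among those that hold the pattern, which is in capitals. HSP26, which fell more, is not among those shown.
HSP82: ctgtattagagTTCAAGAAatcatacctga
SSA1: attgatgtatcTTCGAGAAgggattgagtt
SSA2: gaggttttgacGAAATTTCattcttaagca
They lie at chrXVI:98674-98703, minus strand, at chrI:141554-141583, minus strand and at chrXII:97648-97677, minus strand, with the pattern 67, 141 and 181 bases before the start codon.

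Proteasome genes fell with 1 exception. Of 47 genes tested, 46 fell and 1 rose (median -1.28), and 38 fell at least 2-fold. ECM29, which binds the assembled proteasome, was at 98.9 and 101 CPM in the *eIF3a/b Degron* cultures, against 559.8 and 567 CPM in the WT cultures (log2 change -2.49 ± 0.07 SE, adjusted p = 3.84e-19). CDC48, the segregase that unfolds ubiquitinated proteins, had 238 and 254 CPM in *eIF3a/b Degron* and 1002 and 982 CPM in WT. PRE3, a catalytic subunit, had 46.2 and 41.2 CPM in *eIF3a/b Degron* and 168 and 167 CPM in WT. HSM3, an assembly chaperone of the base, was the single rise (log2 change 0.36 ± 0.07). Their common promoter element, PACE, is bound by Rpn4. The 9 letters GGTGGCAAA were found on either strand in 63.8% of 47 proteasome promoters, against 1.31% of all 5264 promoters, and in 6.63% of the genes that fell 2-fold and 0 of 194 of those that rose 2-fold. Of the 69 tested genes with it, 30 are proteasome genes already counted above, all of which fell. The other 39 had a median log2 change of -0.64, with 26 falls and 8 rises. The windows of the 3 members with the largest falls that hold the element are given, with it in capitals.
ECM29: gccttttcttGGTGGCAAAaaaaaggtact
CDC48: atgtgaattcGGTGGCAAAaaaggacatat
PRE3: aacggaatccGGTGGCAAAaaagggaaaag
They lie at chrVIII:39943-39972, plus strand, at chrIV:238786-238815, minus strand and at chrX:435035-435064, plus strand, with the element 131, 141 and 118 bases before the start codon.

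General stress genes also fell. Of 47 tested genes of the Msn2/4 list, 41 fell, 30 of them at least 2-fold, and 3 rose (median -1.34). RGI1, a respiratory growth protein, was at 28 and 24.3 CPM in the *eIF3a/b Degron* cultures, against 242 and 253 CPM in the WT cultures. YRO2, a membrane protein, was among the rises at 886 and 996 CPM in *eIF3a/b Degron* and 432 and 459 CPM in WT. Trehalose and glycogen genes fell in 15 of 18 and rose in none (median -1.21). PGM2, phosphoglucomutase, was at 91 and 98.8 CPM in *eIF3a/b Degron* and 679 and 662 CPM in WT. TSL1, of the trehalose synthase complex, was at 185 and 232 CPM in *eIF3a/b Degron* and 925 and 989 CPM in WT, and GPH1, glycogen phosphorylase, at 79.4 and 91.4 CPM in *eIF3a/b Degron* and 365 and 365 CPM in WT. These were falls of 7.07, 4.59 and 4.27-fold, each clear of WT. The stress response element, AGGGG on either strand, was present in 66.0% of 47 Msn2/4 list promoters, in 36.1% of genes that fell 2-fold and in 11.9% of those that rose 2-fold, against 21.6% of all 5264. Windows are shown from 2 genes with large falls among list members that hold the element, and not from HSP26 and HXK1, which fell more. The element is in capitals in each window. In that of HSP12, a small membrane stress protein (log2 change -2.98), it lies on the opposite strand and reads CCCCT.
RGI1: gcagcgttcttaAGGGGtattgctgggtgg
HSP12: gttccggtcgtcCCCCTcttgatctgaaag
These are chrV:291836-291865, plus strand and chrVI:107054-107083, plus strand. Genes with the element had a median log2 change of -0.24 and fell in 50.0% of 1137, against 0.07 and 33.1% of 4127 without it. Genes for the oxidative stress response under Yap1 were split, with 13 falls and 7 rises in 23 (median -0.92), AHP1, a peroxiredoxin, falling (log2 change -2.59 ± 0.09) and GTT2, a glutathione transferase, rising (log2 change 1.06 ± 0.13).

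**Figure D4:**
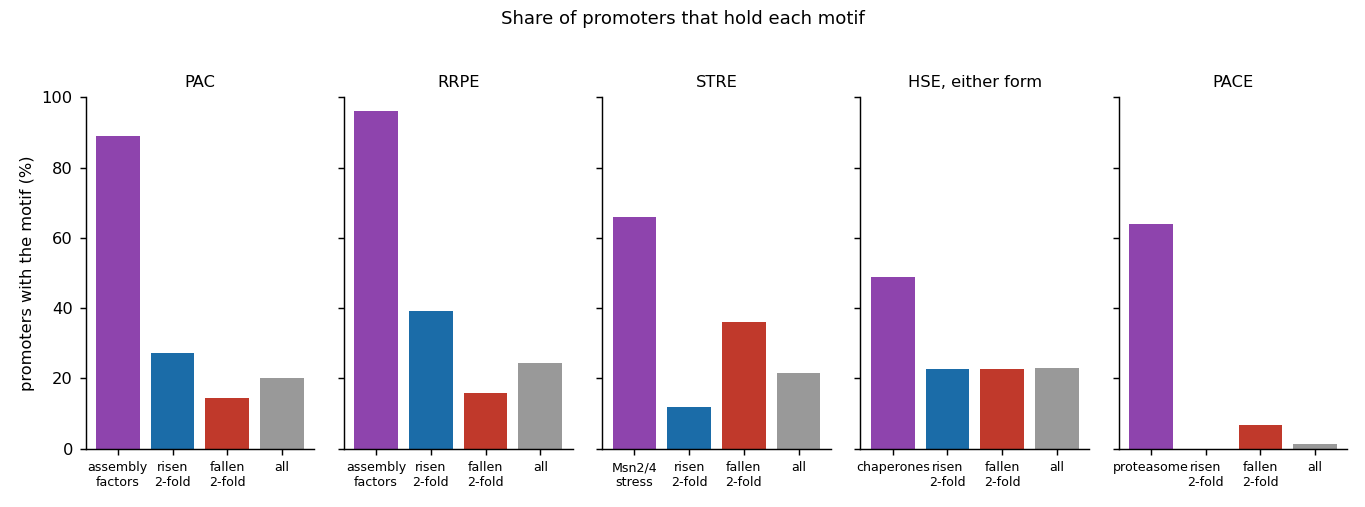
Percentage of promoters (y axis) that hold each of 5 motifs, for the gene list named under the first bar, for genes risen and fallen at least 2-fold and for all 5264 tested genes with a promoter. Shares in the lists stand from 48.9% for the heat shock pattern in chaperones to 96.1% for RRPE in assembly factors, against 1.31% to 24.5% in all promoters.

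Central carbon metabolism and mitochondria fell together. Of 28 tested genes of glycolysis and fermentation, 24 fell, 18 of them 2-fold or more, and 3 rose (median -1.73), and the list held 1.91% and 2.12% of the reads in *eIF3a/b Degron*, against 8.09% and 8.61% in WT. The glyceraldehyde 3-phosphate dehydrogenase gene TDH2 was at 683 and 797 CPM in the *eIF3a/b Degron* cultures, against 7215 and 7830.2 CPM in the WT cultures (log2 change -3.35 ± 0.09 SE, adjusted p = 4.97e-19), with 54.6% of its windows shared, and TDH1 was at 218 and 254 CPM in *eIF3a/b Degron* and 2234 and 2441 CPM in WT. GPP1 and GPD2, enzymes of glycerol synthesis, were among the 3 rises with log2 changes of 0.56 ± 0.07 and 0.38 ± 0.07. Genes of gluconeogenesis, the glyoxylate cycle and the use of fat fell in 20 of 21 (median -1.50), and TCA cycle genes in 24 of 28 (median -1.55). PYC1, pyruvate carboxylase, was at 77.7 and 81.5 CPM in the *eIF3a/b Degron* cultures, against 734 and 718 CPM in the WT cultures. CIT1, citrate synthase, was at 121 and 117 CPM in *eIF3a/b Degron* and 949 and 916 CPM in WT. Mutant and WT cultures did not overlap for either gene. Of 45 genes for the respiratory chain and ATP synthase, 44 fell and none rose (median -1.26). SDH1, succinate dehydrogenase, was at 76.3 and 75.5 CPM in *eIF3a/b Degron* and 506 and 478 CPM in WT, and INH1, an inhibitor of ATP synthase, was at 21.9 and 22.2 CPM in *eIF3a/b Degron* and 87.6 and 88.3 CPM in WT. The nuclear genes of the mitochondrial ribosome fell without exception, 43 of 43 for the large subunit (median -0.93) and 34 of 34 for the small one (median -0.81). Among them IMG1 had 16.5 and 12.7 CPM in *eIF3a/b Degron* and 50.9 and 46.2 CPM in WT. MRP1, of the small subunit, had 55.9 and 51.3 CPM in *eIF3a/b Degron* and 126 and 122 CPM in WT. Mitochondrial translation factors and the import machinery fell in 32 of 37 and rose in 1 (median -0.75), with the elongation factor gene MEF2 at 22.6 and 26.1 CPM in *eIF3a/b Degron* and 169 and 161 CPM in WT and ATP22, which acts on the mRNA of an ATP synthase subunit, rising (log2 change 0.63 ± 0.07). Over the TCA cycle, the respiratory chain and the 3 lists of mitochondrial ribosome, translation and import genes, 173 of 183 genes fell and 2 rose. Mitochondrially encoded genes were not analysed here.

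Galactose genes were mostly lower, both strains being in galactose. Of 13 in the galactose regulon, 10 fell and 2 rose (median -0.86). GAL2, the galactose permease, was at 2056 and 1873 CPM in the *eIF3a/b Degron* cultures, against 6148 and 6008 CPM in the WT cultures (log2 change -1.63 ± 0.08 SE). GAL80, the repressor of the galactose genes, rose (log2 change 0.32 ± 0.07), MTH1, a glucose sensing factor, rose (log2 change 0.44 ± 0.07), and UBR1, driven from the GAL1 promoter, fell (log2 change -0.61 ± 0.09). The list of hexose transporters and sensors was mixed, with 7 up and 6 down in 13 (median 0.35). The transporters HXT5 (log2 change -2.57 ± 0.25) and HXT6 (log2 change -0.73 ± 0.08, with most of its windows shared) fell. HXT4 and HXT2 rose, as did STD1 (log2 change 1.29 ± 0.11), which is not a transporter. HXT2 overlapped between strains, at 182 and 87.5 CPM in *eIF3a/b Degron* and 93.8 and 59.4 CPM in WT, and DESeq2 did not call it.

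Amino acid and nutrient genes showed no common direction. Of 61 Gcn4-type biosynthetic genes, 19 rose and 25 fell (31.1% and 41.0%, near the 35.9% and 36.5% of all genes). Their median was -0.08. It turned positive, at 0.04, when mRNA and footprint libraries were scaled together, as did those of the sulfur and mRNA decay lists at 0.00. SER3, of serine synthesis, rose to 439 and 439 CPM in *eIF3a/b Degron*, against 194 and 180.0 CPM in WT, and ARG1, argininosuccinate synthetase, fell to 19.3 and 16.1 CPM in *eIF3a/b Degron*, against 120.1 and 132 CPM in WT. GDH1 and ASN1 fell (log2 change -1.99 ± 0.07 and -1.62 ± 0.08). Sulfur and methionine genes rose in 7 and fell in 10 of 30 (median -0.12), and MET17 fell (log2 change -2.81 ± 0.13), with an open reading frame on the opposite strand, YLR302C, whose reads cannot be told apart as the counting strand is not given in the sources used here. Nitrogen catabolite genes rose in 7 and fell in 9 of 25 (median -0.17), with DUR3, a urea permease, at 102 and 102 CPM in *eIF3a/b Degron* and 38.1 and 45 CPM in WT and OPT2 at 6.95 and 7.5 CPM in *eIF3a/b Degron* and 54.6 and 57.3 CPM in WT. Phosphate genes rose in 4 and fell in 3 of 16 (median -0.02, or 0.02 with library size alone). The rises of PHO80 (log2 change 0.30 ± 0.11) and PHO11 (log2 change 0.21 ± 0.08) were not called by DESeq2, without WT replicate 1 or in some other leave-one-out fits, and the fall of PHO85 (log2 change -0.28 ± 0.08) was not called without WT replicate 2. Of 7 copper starvation genes 3 rose and 4 fell (median -0.30, or 0.00 with a minimum of 10 reads in every library), the copper transporters CTR1 and CTR3 falling (log2 change -1.58 ± 0.16 and -2.85 ± 0.37), and of 4 copper excess genes 1 rose and 1 fell, the last being SOD1 (log2 change -0.98 ± 0.06).

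Genes of the cell cycle and of growth control were lower or split, beside 35.9% risen and 36.5% fallen of all genes. Of 45 G1/S genes, 32 fell and 6 rose (median -0.46). CLB6, an S phase cyclin, was at 7.26 and 6.36 CPM in *eIF3a/b Degron* and 37.1 and 38 CPM in WT. POL30, the replication clamp, was at 44.5 and 39 CPM in *eIF3a/b Degron* and 153 and 156 CPM in WT. PCL2, a G1 cyclin, was a rise at 101 and 87.4 CPM in *eIF3a/b Degron* and 41.7 and 45.6 CPM in WT. Of 25 G2/M genes, 15 fell and 4 rose (median -0.27), with CLB1 falling (log2 change -1.26 ± 0.10) and AMN1 rising (log2 change 0.82 ± 0.08). Septin and bud neck genes fell in 9 and rose in 3 of 17 (median -0.20), and core histone genes fell in 7 and rose in 2 of 10 (median -0.23), the linker histone HHO1 falling most (log2 change -1.40 ± 0.12). DNA damage response genes fell in 9 and rose in 3 of 15 (median -0.23), with MAG1, a DNA glycosylase, at 6.95 and 9.13 CPM in *eIF3a/b Degron* and 53.9 and 56.7 CPM in WT. Genes of autophagy and vacuolar proteases fell in 18 of 24 and rose in 1 (median -0.74), AMS1, vacuolar mannosidase, being at 22.6 and 27.2 CPM in *eIF3a/b Degron* and 219 and 208 CPM in WT. Of 37 SNF1, PKA and TOR signalling genes 16 rose and 13 fell (median 0.04, which turned negative, at -0.06 or -0.05, without WT replicate 2 or *eIF3a/b Degron* replicate 2), with HXK2 falling (log2 change -2.21 ± 0.07) and the repressor genes MIG1 and MIG2 rising (log2 change 1.21 ± 0.07 and 2.46 ± 0.28). Among 34 genes of mRNA decay and P-bodies 12 rose and 12 fell (35.3% each, median -0.12), which is near the shares of all genes. XRN1, the main cytoplasmic 5′ to 3′ exonuclease, was at 388 and 365 CPM in the *eIF3a/b Degron* cultures, against 755 and 759 CPM in the WT cultures (log2 change -1.01 ± 0.06 SE, adjusted p = 1.64e-12). SBP1, an mRNA-binding protein, fell (log2 change -1.66 ± 0.07), and EDC1, an activator of decapping, rose (log2 change 0.96 ± 0.10).

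The genes of several regulators of these lists also changed. HSF1, the heat shock activator, was at 97 and 109 CPM in the *eIF3a/b Degron* cultures, against 182 and 187 CPM in the WT cultures. RPN4 was at 179.5 and 219 CPM in *eIF3a/b Degron* and 317 and 324 CPM in WT, and MSN2 at 108 and 109 CPM in *eIF3a/b Degron* and 144 and 154 CPM in WT. These fell (log2 change -0.84 ± 0.07, -0.69 ± 0.07 and -0.46 ± 0.07), all below WT in both cultures. HAP4, the activator of respiratory genes (log2 change -0.70 ± 0.07), GAL4 (log2 change -0.86 ± 0.10) and SWI4, of the G1/S factor SBF (log2 change -0.56 ± 0.07), also fell. The ribosome gene activator SFP1 rose (log2 change 0.39 ± 0.07), while STB3, which binds RRPE, fell (log2 change -0.96 ± 0.08). DOT6 and TOD6, repressors that bind PAC, rose (log2 change 0.28 ± 0.08 and 1.21 ± 0.07), the DOT6 call being lost without WT replicate 1. GCN4 was at 1638 and 1494 CPM in *eIF3a/b Degron* and 982 and 1015 CPM in WT (log2 change 0.65 ± 0.07 SE) in strains without Gcn2. MSN4 (log2 change 0.25 ± 0.08) and MAC1 (log2 change 0.31 ± 0.09) rose slightly, MSN4 not being called by DESeq2, PUF3 fell (log2 change -0.27 ± 0.06), and HAC1 did not pass the edgeR test (log2 change 0.09 ± 0.06, adjusted p = 0.193) but did with library size alone (adjusted p = 0.0483).

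The change was also described across genes by level, base composition and length. In 5 equal groups of genes by WT level per kilobase of counted sequence, the median log2 change was 0.10, 0.09, 0.07, -0.08 and -0.25 from the lowest level to the highest, and 53.2% of genes in the highest group fell. In 5 groups by coding GC content it was 0.15, 0.05, -0.03, -0.05 and -0.21. By counted length it was -0.14, 0.04, 0.00, 0.06 and 0.05, and Spearman's correlation with the change across genes, which are not independent, was 0.07 for length, -0.14 for level and -0.16 for GC, the same 4 libraries standing behind each value. Genes with an intron had a median of 0.21 over 245 genes, but of -0.18 over the 156 that are not ribosomal protein genes, against -0.02 over 4971 genes with no intron that are not. The part of level and composition in the changes above was not tested.

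The response was set beside that of the other eIF3 mutant, *eIF3i DDKK* against its own WT, to see which changes differed. That mutant has TIF34 (eIF3i) with the substitutions D207K and D224K. It and its WT are *MATa* with mutations in LEU2, TRP1 (*trp1Δ*) and URA3 (*ura3-52::GCN2*). Both lack chromosomal TIF34 (*tif34Δ*) and have HA-tagged TIF34, mutant or WT, on a plasmid. Unlike the *eIF3a/b Degron* pair, both carry GCN2. They were shifted from 30°C to 37°C for 30 min in SC medium. Mutation, GCN2, strain background, medium, temperature and time thus cannot be told apart in this comparison. A test of the difference between the log2 changes (edgeR, interaction over the 8 mRNA libraries, 5228 genes) found 973 genes higher (18.6%) and 997 lower (19.1%) in the *eIF3a/b Degron* response. With scaling by library size alone the same test gave 265 higher and 1165 lower (18.5% of calls higher, against 49.4%), and it gave 548 and 701 without WT replicate 1 of the *eIF3a/b Degron* pair, 575 and 679 without WT replicate 2 and 577 and 687 without *eIF3a/b Degron* replicate 1. Over all 5228 genes, 632 rose and 730 fell in *eIF3i DDKK* against its WT. In *eIF3a/b Degron*, 1903 rose and 1938 fell of 5306, so counts within a list have a different background in each mutant. Of 31 cytosolic chaperone genes, 26 fell in *eIF3a/b Degron* and 22 in *eIF3i DDKK*. The median of the cytosolic chaperone list was -1.73 in *eIF3a/b Degron* and -1.49 in *eIF3i DDKK*, with 6 genes of 31 above and 7 below in the test of the difference. Endoplasmic reticulum folding genes had medians of -1.01 and -1.06. The respiratory chain differed, with a median of -1.26 in *eIF3a/b Degron* and 0.40 in *eIF3i DDKK*, and 42 of 45 genes were lower and none higher in the test. The Msn2/4 list had medians of -1.34 and 0.04 (39 of 47 lower, 2 higher). The *eIF3i DDKK* cultures were far apart for some stress genes. RGI1 was at 27.3 and 59.0 CPM in them, against 42.6 and 69.1 CPM in their WT, and TSL1 at 1041 and 2100 CPM, against 1673 and 1853 CPM. The 8 libraries shared 1 estimate of the spread (coefficient of variation 0.087, against 0.047 in the *eIF3a/b Degron* pair alone). The TCA cycle had medians of -1.55 and -0.08 (22 of 28 lower, 1 higher). Assembly factors had 0.83 and 0.03 for the SSU processome (48 of 57 higher, none lower) and 0.85 and 0.05 for the 60S list (57 of 70 higher). Of 57 small subunit protein genes, 57 rose in *eIF3a/b Degron* and 27 in *eIF3i DDKK*, with medians of 0.92 and 0.46, and 35 were higher in the test and none lower. Core histone genes had medians of -0.23 in *eIF3a/b Degron* and 0.73 in *eIF3i DDKK* (9 of 10 lower). Across the 5228 genes the 2 sets of log2 changes had a Spearman correlation of 0.46, as a description over genes measured in separate cultures with separate WT.

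**Figure D5:**
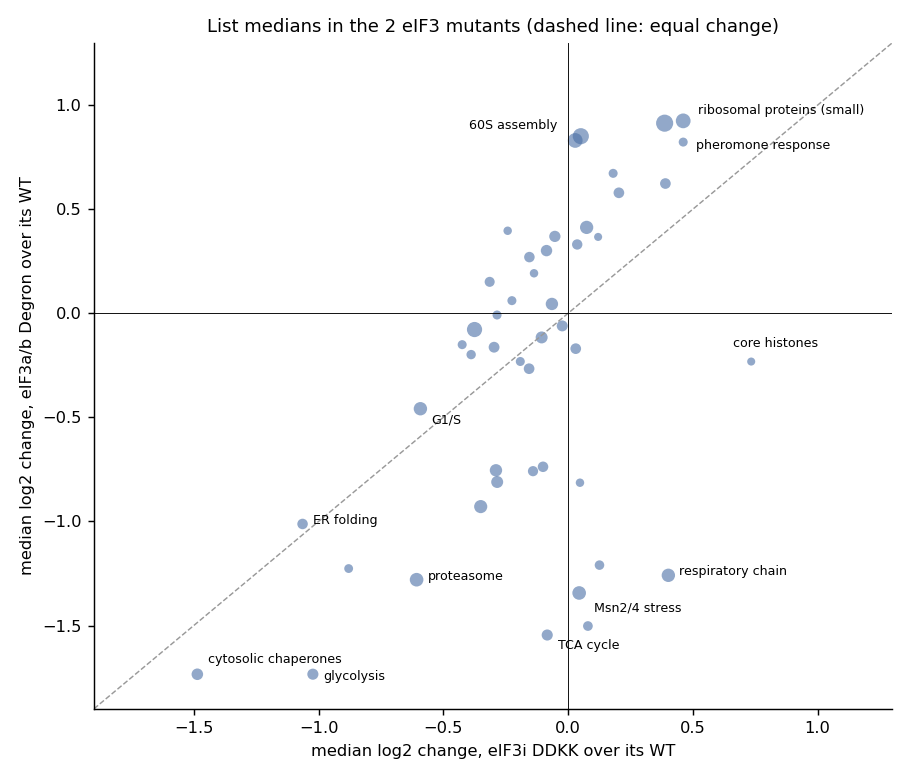
Median log2 change of each list with at least 10 genes measured in both backgrounds in *eIF3a/b Degron* over its WT (y axis) against *eIF3i DDKK* over its WT (x axis), with dot area by list size. The cytosolic chaperone and ER folding lists lie near the dashed line of equal change, and the respiratory chain list lies far below it.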

How the data were processed

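Per the labels and the study's methods, cells were treated with cycloheximide before harvest, and total RNA was fragmented, depleted of rRNA and sequenced on an Illumina HiSeq, and the deposited values are raw counts of reads per gene, which the authors made without pooling replicates. The submitters' processing notes name CASAVA 1.8, Bowtie2 2.2.6.0, TopHat2 2.1.0, DESeq2 and the sacCer3 build. The counted region left out the first 15 and last 5 codons, and in 5196 of 5201 genes with 1 coding part the deposited length was 60 nt under the R64 coding length. The strand used in counting is not given in the sources used here, so reads of overlapping genes on opposite strands cannot be separated. The authors' own table of log2 translational efficiencies, fold changes and p-values was not used.

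The 2 *eIF3a/b Degron* and 2 WT mRNA libraries were fitted in edgeR 4.0.16 (limma 3.58.1, R 4.3.3) with TMM factors and the quasi-likelihood F-test, with Benjamini-Hochberg adjustment over 5306 genes and a threshold of 0.05. The filter follows the study. The comparison with *eIF3i DDKK* was the interaction in a fit of 8 mRNA libraries. The procedure was tested on simulated data. DESeq2 1.42.0, 3 other scalings or sample sets, 2 other filters, a replicate block, stricter thresholds and leaving out each library were tried as alternatives. Members and gene lists were chosen with earlier results of these data known. Genes named were the 15 largest rises and 15 largest falls with at least 100 reads in each library of the higher strain and no overlap of cultures, up to 3 rises and 3 falls per list, a fixed set of regulators and the genes that check the genotype. ASG7, MFA1, MF(ALPHA)2 and HSP12 were named after their values were seen. Gene IDs were matched to RefSeq R64 for 5450 of 5647, 1485 list members were matched and 5 list names were not. Promoters are 250 bases before to 50 after the start codon, from RefSeq R64. A shared window is a stretch of 28 bases of coding sequence that occurs more than once among coding sequences. Motif shares and gene features were computed with Python 3.11.15. A gene among those named per list is not reported here.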

Additional observations from a re-analysis of the deposited data

Results flagged for a closer look

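The mRNA response differed between the mutants in 1970 of 5228 genes, by the edgeR test of the interaction. Of the 30 genes with the largest changes in *eIF3a/b Degron*, 22 were among these 1970. MF(ALPHA)1, RGI2 and YMR206W were not tested in both pairs, and HSP82, KAR2, HXK1, SSA1 and SSA2 did not pass the test. The 30 were picked by their change in *eIF3a/b Degron*, so a difference from the other mutant was favoured by the choice. Each difference is given as the log2 change in *eIF3a/b Degron* minus that in *eIF3i DDKK*. The log2 change was higher in *eIF3a/b Degron* than in *eIF3i DDKK* for YMR317W (4.1643), HXT4 (3.9605), YDR222W (3.5631), AQR1 (2.8416), TPO2 (2.3404), FRE4 (2.253), PIR3 (1.6422), PST1 (1.62), ARO9 (1.6032), SSK22 (1.5436), SLT2 (1.5256), ARO10 (1.269), PRM5 (1.2406) and IME2 (1.1234). Of these, HXT4 (log2 change -0.85) and YDR222W (-0.95) fell in *eIF3i DDKK*. The log2 change was lower in *eIF3a/b Degron* than in *eIF3i DDKK* for SPO24 (-5.3022), MPC3 (-5.0636), POT1 (-4.1435), HSP42 (-3.3672), SDH9 (-3.3032), MAN2 (-2.7221), HSP26 (-2.2822) and ALD6 (-1.9856). Of these, SPO24 (log2 change 1.50) and MPC3 (1.06) rose in *eIF3i DDKK*. Strain background, GCN2, medium, temperature and time differ with the mutation between the 2 pairs of strains and cannot be told apart.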

How the results depend on the processing

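The counts of changed genes stayed within 1.5 times of 3841 (1903 risen, 1938 fallen) under DESeq2, other scalings, other filters, the adjusted p threshold of 0.01 and without YDR445C. Requiring a 2-fold change as well left 817 genes, 197 risen and 620 fallen. Leaving out 1 library at a time gave 3401 to 3744 changed genes, 1666 to 1851 risen and 1735 to 1893 fallen. The replicate block gave 3834 changed genes, 1907 risen and 1927 fallen, and the numbers did not pair the cultures (correlation of same-number deviations across genes 0.0105, over only 2 pairs). For the difference between the mutants, 1249 to 2514 genes differed when 1 library was left out, the counts being 1249 without WT replicate 1, 1254 without WT replicate 2 and 1264 without *eIF3a/b Degron* replicate 1, all more than 1.5 times below 1970, and the replicate block gave 2198. Of 3294 values of named genes under alternatives, 3215 kept direction and call, 75 lost the call, 4 gained it and none turned. Of 660 list medians under alternatives, 17 changed sign, in 8 of 55 lists, the largest shift of these being in copper starvation genes (median -0.30, or 0.00 with at least 10 counts in every library). A cause was not tested. Precision is limited by 2 cultures per strain, by the absence of a measure of total mRNA per cell, and by reads shared between gene copies.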

Other observations

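A further 4 lists of genes were drawn up after the values were seen and are given as values only. Of 26 genes of the cell wall integrity pathway, 16 rose and 4 fell (median log2 change 0.64), among them, beside SLT2, its transcription factor RLM1 (1.49) and the pseudokinase gene KDX1 (1.93). Of 13 multidrug and polyamine exporter genes, 8 rose and 3 fell (median 0.37), with TPO3 at 1.87 and PDR5 at 1.18 on the log2 scale. Of 10 genes of maltose and sucrose use, 7 fell and none rose (median -1.30), the invertase gene SUC2 having a log2 change of -3.32 and the maltase genes MAL12 and MAL32 of -2.95 and -3.05. Of 8 genes of aromatic amino acid breakdown, 4 rose and 3 fell (median 0.15).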
